A study of Homo sapiens with 6 samples.

Results

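GOT1 and 8 genes that work with it in the malate-aspartate shuttle and in glutamate metabolism were followed in THP-1 cells carrying a hairpin against GOT1. The members were the rows of the deposited table whose gene name is GOT1, MDH1, GOT2, MDH2, SLC25A11, SLC25A12, SLC25A13, GPT2 or GLUD1, 9 of 20263 genes in all, and all 9 passed the filter on low counts. THP-1 is an established human cell line with monocytic features that came from an acute myeloid leukaemia. Messenger RNA was sequenced from 3 libraries of cells with a GOT1 knockdown by a short hairpin RNA (shGOT1) and 3 libraries of cells with a control hairpin (shNC), which the labels call wild type. The labels name a single shGOT1 line with no other GOT1 hairpin and no rescue, so other effects of that hairpin cannot be told apart from the loss of GOT1. The 3 libraries of a group are called biological replicates without a statement that cultures or transductions were separate, and p-values here measure only how far these libraries spread, which may be technical.

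The malate-aspartate shuttle carries the electrons of cytosolic NADH into mitochondria, whose inner membrane NADH itself cannot cross. In the cytosol GOT1 makes oxaloacetate from aspartate and MDH1 reduces it to malate with NADH. SLC25A11 brings malate into the matrix, MDH2 oxidises it back to oxaloacetate, GOT2 turns that into aspartate, and SLC25A12 or SLC25A13 exports the aspartate in exchange for glutamate. GPT2 and GLUD1 join the same mitochondrial pools, since both interconvert glutamate and 2-oxoglutarate. In proliferating cells the aspartate also feeds nucleotide and asparagine synthesis.

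The total count per library was 26734767 to 39144890 in shGOT1 and 26226977 to 28712260 in shNC. The labelled cell type was checked against 18 markers of a monocytic leukaemia line, of which 17 had a mean of at least 1 TPM (a transcript level adjusted for gene length, with the same total in each library). Their summed level was 5642 to 5764 TPM in shGOT1 and 5285 to 5498 TPM in shNC. Of these 18 markers, 6 were higher and 10 lower in shGOT1 (edgeR adjusted p under 0.05), against 44.6% of all genes tested that passed in either direction. The lower ones include lysozyme (LYZ, log2 fold change -3.05) and the higher ones CTSG (0.90). Both were named as examples after their values were seen. Among 9 markers of T, B and NK cells, CD3E, CD3G, MS4A1 and KLRD1 had no count in any library, and the list summed to 50.2 to 57.7 TPM in shGOT1 and 28.3 to 36.5 TPM in shNC. The 3 of them that were tested were higher in shGOT1. Of 7 erythroid and platelet markers HBG1 and PF4 had no count, and the list summed to 7.48 to 8.23 TPM in shGOT1 and 8.26 to 10.1 TPM in shNC, with 1 of 3 tested members higher. Of 9 epithelial, fibroblast and endothelial markers EPCAM, CDH1 and COL1A2 had no count, and the list summed to 101.2 to 106.6 TPM in shGOT1 and 101.3 to 104.6 TPM in shNC, most of it the adhesion gene PECAM1, which monocytes also express. In that list 3 of 5 tested members were higher and 1 lower. These marker changes separate the same 2 groups as the results that follow, and their part in those results was not tested. In such bulk samples fewer cells that express a gene and less RNA per cell cannot be told apart.

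Log2 fold changes have shGOT1 on top and come from the quasi-likelihood test of edgeR run on counts, with p-values adjusted by Benjamini-Hochberg over the 13735 genes tested, with a threshold of 0.05. SE is the standard error of the log2 fold change. GOT1, SLC25A12 and GPT2 changed by more than the median absolute log2 fold change of all genes tested (0.247), and the others by less. GOT1 fell, SLC25A12 and GPT2 rose by 1.32 and 1.25 times, MDH2 and GLUD1 fell by small amounts that depended on the scaling, and MDH1, GOT2, SLC25A11 and SLC25A13 did not pass. The 5 members past the threshold were 2 higher and 3 lower. Of all genes tested 44.6% passed, 21.9% higher and 22.8% lower, so the share among the members is near the background. The median log2 fold change was 0.026 over the 9 members and 0.00452 over all genes tested.

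**Figure D1:**
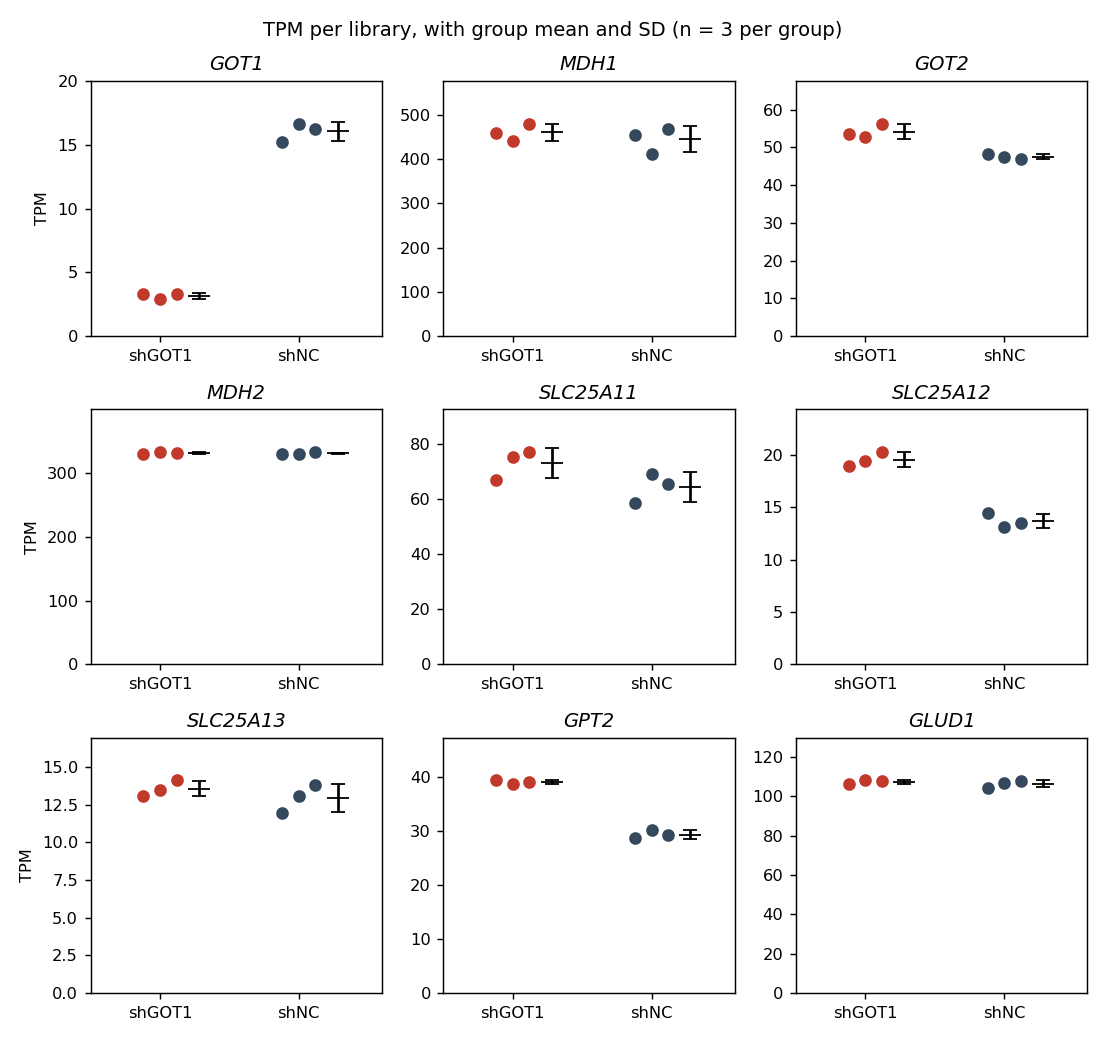
TPM (y axis, from 0) of the 9 genes in each library, with shGOT1 in red on the left and shNC in blue on the right of each panel; the bar beside the points is the mean with its SD (n = 3). The groups are apart for GOT1, GOT2, SLC25A12 and GPT2 and overlap in the other 5 panels.

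The 2 aminotransferases share little exact coding sequence, so reads of the coding parts of GOT1 and GOT2 are easy to separate. The parts of the transcripts outside the coding sequence were not compared. Their coding sequences were 59.4% identical over 1207 aligned bases of GENCODE 29 transcripts (GRCh38), and the longest run they share in full is 15 bases. That run is printed in capitals with the 20 coding bases on each side, to show how soon the 2 genes diverge. It spans coding bases 1069 to 1083 of GOT1 and 1129 to 1143 of GOT2, counted from the A of the start codon.
GOT1: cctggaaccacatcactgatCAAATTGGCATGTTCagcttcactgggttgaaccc
GOT2: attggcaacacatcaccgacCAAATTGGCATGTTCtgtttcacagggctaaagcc
None of the 1165 windows of 75 bases in the GOT1 coding sequence occurs in a transcript of another annotated gene, and 2 of the 1216 windows of GOT2 do. The read length is not given in the sources used here, and 75 bases was a chosen window.

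GOT1 (ENSG00000120053, protein-coding, chromosome 10, 99396870 to 99430593, minus strand, 9 exons in the GENCODE transcript used) encodes the cytosolic aspartate aminotransferase and is the hairpin's target. It had 3.27, 2.87 and 3.33 TPM in shGOT1, against 15.3, 16.7 and 16.3 TPM in shNC. Each knockdown library was far below each control library, and the 3 stood at 20.4%, 17.8% and 20.7% of the shNC mean. GOT1 was 5.45-fold lower, with a 95% interval of 4.68 to 6.35, at a log2 fold change of -2.45 with an SE of 0.0907 (edgeR adjusted p = 1.26e-05). Of the genes tested 86 had a lower log2 fold change, and 78 of those passed the threshold, so the targeted gene was among the largest falls without being the largest. On the deposited counts, 92, 94 and 136 remained in shGOT1, against 430, 510 and 503 in shNC.

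MDH1 (ENSG00000014641, chromosome 2, 63588609 to 63607197, plus strand), the cytosolic malate dehydrogenase, was the member with the highest level. It had 459, 442 and 481 TPM in shGOT1 and 455, 412 and 468 TPM in shNC, and the groups overlapped. Its log2 fold change was 0.026, with a 95% interval of -0.069 to 0.12 (edgeR adjusted p = 0.629), whose upper end is 1.09-fold. MDH1 was also the member whose count and FPKM (a fragment count scaled to gene length and depth) went together least. The ratio of its count to its FPKM, scaled to the library total, ran from 92.5% to 111% of its mean over the 6 libraries, while for GOT1 it stayed between 99.8% and 100.3%. The table places MDH1 across 191 bases of WDPCP, a gene on the other strand. WDPCP fell in the fit (-0.49, edgeR adjusted p = 0.0153), but did not pass when limma was run on log2(TPM + 1) (adjusted p = 0.683) or without shGOT1 replicate 3 (edgeR adjusted p = 0.0509).

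The mitochondrial partners of these 2 enzymes stayed close to control levels. GOT2 (ENSG00000125166, chromosome 16, 58707131 to 58734357, minus strand), the mitochondrial aspartate aminotransferase, had 53.6, 52.7 and 56.4 TPM in shGOT1 and 48.3, 47.4 and 47.0 TPM in shNC. The groups did not overlap in TPM. They were also apart in counts scaled to the library total, at 68.6 to 73.6 CPM in shGOT1 and 62.8 to 64.7 CPM in shNC. The count fit gave GOT2 0.090 with a 95% interval of -0.0083 to 0.19 and did not call it (edgeR adjusted p = 0.121). Over the 9 members the TPM of the groups were apart for 4, higher in GOT2, SLC25A12 and GPT2 and lower in GOT1, against 55.2% of all genes tested (36.4% higher and 18.8% lower). With limma on log2(TPM + 1) the value was 0.19 and passed (adjusted p = 0.0136), as 42.1% of all genes did with that fit, among them 4 members, GOT1, GOT2, SLC25A12 and GPT2. Once TPM was rescaled by median of ratios it was 0.081 (adjusted p = 0.163). MDH2 (ENSG00000146701, chromosome 7, 76048051 to 76067508, plus strand), the mitochondrial malate dehydrogenase, had 329.2, 332.6 and 331.5 TPM in shGOT1 and 329.1, 330.1 and 331.9 TPM in shNC, an overlap of groups that differ by less than their spread. Its counts scaled to the library total gave 372.7 to 381.4 CPM in shGOT1 and 384.6 to 391.3 CPM in shNC, which do not overlap. The count fit, in which TMM normalization factors were 1.02 in every shGOT1 library and 0.974 to 0.983 in shNC, gave -0.10 with an SE of 0.0195 (edgeR adjusted p = 0.00645), while limma on log2(TPM + 1) gave 0.00323 (adjusted p = 0.920). Limma on TPM rescaled by median of ratios gave MDH2 -0.10 (adjusted p = 0.0171). MDH2 also passed with DESeq2 (adjusted p = 0.00753) and whichever library was left out. Its call was thus lost only with limma on TPM or FPKM that was not rescaled. The far end of the 95% interval of MDH2 was 1.11-fold lower.

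Expressed as shares of transcripts per length, the balance of the 2 aminotransferases moved, which mostly restates the fall of GOT1, the hairpin's target. The share of MDH1 among the 2 dehydrogenases overlapped between the groups in TPM. GOT1 made up 5.76%, 5.17% and 5.58% of the summed GOT1 and GOT2 TPM in shGOT1, against 24.04%, 26.04% and 25.74% in shNC. The mean shares were 5.50% ± 0.303 in shGOT1 and 25.3% ± 1.08 in shNC (SD, n = 3 each, exact permutation p = 0.1). The summed TPM of the pair was 57.4 ± 2.11 in shGOT1 and 63.6 ± 0.417 in shNC (SD, n = 3 each), and the groups did not overlap. MDH1 made up 58.2% ± 1.07 of the summed MDH1 and MDH2 TPM in shGOT1 and 57.4% ± 1.58 in shNC (SD, n = 3 each, exact permutation p = 0.6). In counts in place of TPM that share was 2.17 percentage points higher in shGOT1, with groups that did not overlap (exact permutation p = 0.1). With 3 libraries a group no exact 2-sided p can fall below 0.1, and adjusted over the 3 shares examined the values were 0.15 for GOT1 and 0.6 for MDH1.

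The coding sequences of MDH1 and MDH2 were 55.2% identical over 964 aligned bases. Their longest shared run, in capitals with 20 coding bases on each side, is 12 bases long, too short for a read to be shared, and lies at coding bases 462 to 473 of MDH1 and 256 to 267 of MDH2.
MDH1: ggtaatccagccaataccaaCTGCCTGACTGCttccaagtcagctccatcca
MDH2: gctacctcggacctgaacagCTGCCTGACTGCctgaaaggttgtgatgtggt

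Among the carriers of the inner membrane, SLC25A12 rose and the other 2 did not pass. SLC25A12 (ENSG00000115840, chromosome 2, 171784370 to 171894252, minus strand), the aspartate-glutamate carrier known as aralar, had 18.9, 19.5 and 20.3 TPM in shGOT1, against 14.4, 13.1 and 13.5 TPM in shNC. All 3 knockdown libraries were above all 3 controls. SLC25A12 was 1.32-fold higher, with a 95% interval of 1.21 to 1.44, at a log2 fold change of 0.40 with an SE of 0.0517 (edgeR adjusted p = 0.00149), and 67.7% of the genes tested had a smaller absolute change. SLC25A13 (ENSG00000004864, chromosome 7, 96120220 to 96322147, minus strand), the liver-type carrier of the same exchange known as citrin, had 13.1, 13.5 and 14.1 TPM in shGOT1 and 11.9, 13.1 and 13.8 TPM in shNC, with overlapping groups. Its log2 fold change was -0.031, with a 95% interval of -0.22 to 0.16 (edgeR adjusted p = 0.782). The difference between the 2 carriers can be read from their shares. SLC25A12 made up 59.1%, 59.1% and 59.0% of their summed TPM in shGOT1, against 54.7%, 50.1% and 49.5% in shNC. The means were 59.1% ± 0.0708 in shGOT1 and 51.4% ± 2.87 in shNC (SD, n = 3 each, exact permutation p = 0.1, the smallest possible, and 0.15 adjusted over the 3 shares). The groups did not overlap, and the summed level of the 2 carriers was 33.1 ± 1.18 TPM in shGOT1 and 26.6 ± 0.597 TPM in shNC.

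The 2 aspartate-glutamate carriers are closer in sequence than the other pairs of the shuttle, at 72.3% identity over 2016 aligned coding bases. No window of 75 bases of either coding sequence occurs in another annotated gene.

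SLC25A11 (ENSG00000108528, chromosome 17, 4937130 to 4940251, minus strand), the carrier that exchanges malate for 2-oxoglutarate, did not pass and varied widely within groups, with an SD of 8.19% of its mean CPM in shGOT1 and 9.17% in shNC. It had 67.1, 75.2 and 77.2 TPM in shGOT1 and 58.6, 69.2 and 65.4 TPM in shNC. The lowest shGOT1 library lay below the highest shNC library. The log2 fold change was 0.074, with a 95% interval of -0.14 to 0.29 (edgeR adjusted p = 0.544), so a rise of up to 1.22-fold lay inside the interval. In the table it shares 244 bases with RNF167 on the other strand, a ubiquitin ligase gene at 74.6 ± 13.3 TPM in shGOT1 and 93.2 ± 5.61 TPM in shNC (SD, n = 3 each), for which the fit gave -0.33 (edgeR adjusted p = 0.0583, 0.00118 without shGOT1 replicate 3, DESeq2 adjusted p = 0.0209, and 0.0356 with limma on rescaled TPM). Whether counting used the strand is not given in the sources used here, so reads of the shared bases are uncertain.

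**Figure D2:**
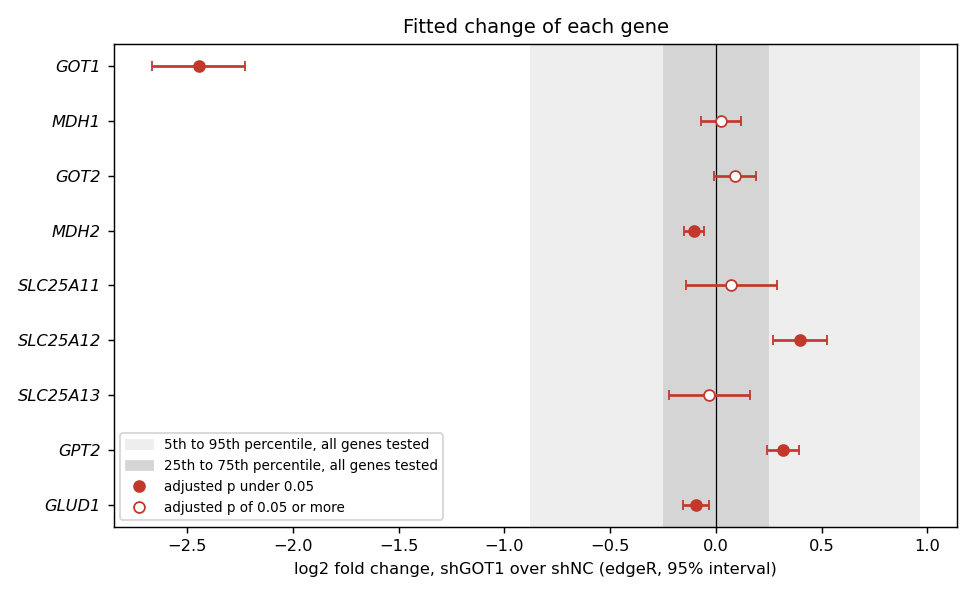
Log2 fold change of each gene, shGOT1 over shNC, from edgeR's fit on the counts (x axis), with 95% intervals; filled points passed an adjusted p of 0.05. The grey bands hold the middle 50% and 90% of all genes tested, and SLC25A12, at 0.40, and GPT2, at 0.32, lie just outside the inner band, which ends at 0.25, while GOT1 lies far left of the outer band.

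Of the 2 linked glutamate enzymes, GPT2 rose and GLUD1 was near its control level. GPT2 (ENSG00000166123, chromosome 16, 46884378 to 46931297, plus strand), the mitochondrial alanine aminotransferase, which makes 2-oxoglutarate and alanine from glutamate and pyruvate, had 39.4, 38.8 and 39.1 TPM in shGOT1, against 28.7, 30.2 and 29.3 TPM in shNC. Both groups were tight and far apart relative to their spread. GPT2 was 1.25-fold higher, with a 95% interval of 1.18 to 1.31, at a log2 fold change of 0.32 with an SE of 0.0311 (edgeR adjusted p = 0.000480), and 59.5% of the genes tested had a smaller absolute change. GLUD1 (ENSG00000148672, chromosome 10, 87050486 to 87094866, minus strand), the glutamate dehydrogenase, had 106.1, 108.0 and 107.5 TPM in shGOT1 and 104.4, 106.8 and 107.7 TPM in shNC, with groups that overlap. In the count fit GLUD1 stood at -0.092, with an SE of 0.0255 (edgeR adjusted p = 0.0278). That call was lost without shGOT1 replicate 1 (adjusted p = 0.0788), shGOT1 replicate 3 (0.0663), shNC replicate 2 (0.0786) or shNC replicate 3 (0.0733), and limma on log2(TPM + 1) gave 0.012 (adjusted p = 0.769).

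The value of GLUD1 is the least certain of the 9 by coding sequence, the only part of the members' transcripts that was searched. Its coding sequence is 97.6% identical to that of GLUD2, an intronless copy on the X chromosome, and the longest run they share is 302 bases. Of 1600 windows of 75 bases in the GLUD1 coding sequence, 829 (51.8%) occur in a transcript of another annotated gene, 537 of them in GLUD2 and 373 in SHLD2, a neighbour on the other strand whose annotated gene overlaps GLUD1. GLUD2 itself stood at 2.52 ± 0.122 TPM in shGOT1 and 2.22 ± 0.428 TPM in shNC (SD, n = 3 each) and did not pass (log2 fold change 0.081, edgeR adjusted p = 0.730). SHLD2 stood at 18.2 ± 2.08 TPM in shGOT1 and 17.9 ± 1.11 TPM in shNC, with a log2 fold change of -0.10 that did not pass (edgeR adjusted p = 0.423).

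By level, the 9 genes fell in the order MDH1, MDH2, GLUD1, SLC25A11, GOT2 and GPT2 in both groups. In shGOT1 these were followed by SLC25A12, SLC25A13 and GOT1, and in shNC by GOT1, SLC25A12 and SLC25A13. GOT1 averaged 3.16 ± 0.252 TPM in shGOT1 and 16.1 ± 0.732 TPM in shNC (SD, n = 3 each), and ranked 9 of 9 in shGOT1 and 7 of 9 in shNC. SLC25A12 and SLC25A13, neighbours in both orders, did not overlap in TPM in shGOT1 (18.9 to 20.3 for SLC25A12 and 13.1 to 14.1 for SLC25A13) and did in shNC (13.1 to 14.4 for SLC25A12 and 11.9 to 13.8 for SLC25A13). No other neighbours in either order overlapped.

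Of the genes around GOT1 on the chromosome 1 fell, by less than GOT1 did. Of the 5 tested genes on each side, LOXL4 (1.12) and ENTPD7 (0.70) were higher in shGOT1, HPS1 (-0.67) was lower, and the other 7 did not pass the edgeR test, with a median of 0.074 over the 10. The closest genes, HPS1 and SLC25A28, had log2 fold changes of -0.67 and 0.075. SLC25A12 stood at 0.40 and the median of its 10 neighbours at 0.039, and GPT2 stood at 0.32 and the median of its neighbours at 0.041. Next to MDH2 5 of 10 neighbours were higher and 2 lower, while MDH2 stood at -0.10. Over all 9 members 37 of 90 neighbours passed (41.1%), 19 higher and 18 lower, near the 44.6% of all genes tested.

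**Figure D3:**
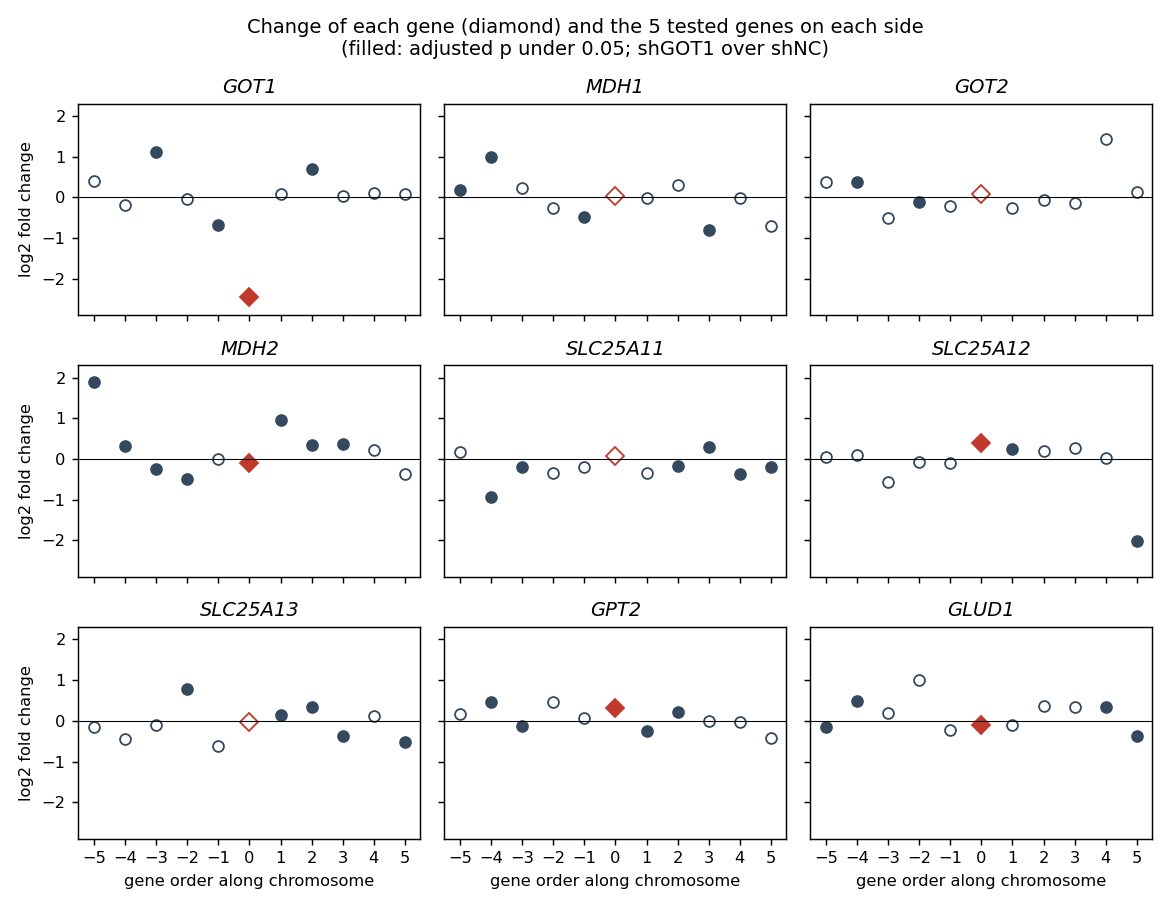
Log2 fold change, shGOT1 over shNC (y axis), of each gene (red diamond) and of the 5 tested genes on each side of it in chromosome order (x axis); filled symbols passed an adjusted p of 0.05. In the GOT1 panel the diamond stands at -2.45 and the lowest neighbour, HPS1, at -0.67.

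The pathways around the shuttle were described with 6 lists of 92 genes, of which 82 were tested. Of these 19 were higher and 20 lower, or 47.6%, against 44.6% of all genes tested, with a median log2 fold change of 0.028. No list was tested as a set.

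Among 14 tested genes that use aspartate or asparagine, 6 were higher, 3 lower and 5 did not pass, with a median of 0.14. The N-acetylaspartate synthase NAT8L rose, at 12.2 ± 0.0955 TPM in shGOT1 and 7.83 ± 0.379 TPM in shNC (0.53 with an SE of 0.0516, edgeR adjusted p = 0.000473). The pyrimidine synthesis genes CAD (0.28) and UMPS (0.29), which were chosen after their values were seen, rose as well. DHODH, of the same pathway, did not pass (0.11, edgeR adjusted p = 0.245). ASNS, which turns aspartate into asparagine, fell (-0.37, edgeR adjusted p = 0.00192), and did not pass when limma was run on log2(TPM + 1) (adjusted p = 0.0614). ADSS1, a purine cycle enzyme that consumes aspartate, fell (-0.31, edgeR adjusted p = 0.0217). Its call was lost without shGOT1 replicate 1 (0.0617), shGOT1 replicate 2 (0.0562), shNC replicate 1 (0.0654) or shNC replicate 2 (0.0669).

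Among 13 tested transporters of aspartate, glutamate and glutamine, 1 rose, 4 fell and 8 did not pass, with a median of -0.044. The amino acid transporter SLC38A5 had 40.7, 45.0 and 53.0 TPM in shGOT1, against 20.7, 23.8 and 18.9 TPM in shNC (0.84, SE 0.108, edgeR adjusted p = 0.00140). The cystine-glutamate exchanger SLC7A11 fell, at 2.99 ± 0.257 TPM in shGOT1 and 4.04 ± 0.266 TPM in shNC (-0.40). UCP2, a mitochondrial carrier that can export aspartate, was called lower (-0.46, edgeR adjusted p = 0.0251). It did not pass when limma was run on log2(TPM + 1) (adjusted p = 0.0991), nor without shGOT1 replicate 1 (0.0753), shGOT1 replicate 2 (0.0784), shNC replicate 2 (0.0714) or shNC replicate 3 (0.0736). The 5 calls of this list became 3 without shGOT1 replicate 1 or 2 and 2 without shNC replicate 2 or 3.

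Among 19 tested enzymes of glutamine and glutamate, 5 rose, 5 fell and 9 did not pass, with a median of 0.070. ALDH18A1, which starts proline synthesis from glutamate, rose to 49.9 ± 1.36 TPM in shGOT1, against 31.1 ± 0.195 TPM in shNC (0.58, SE 0.0356, edgeR adjusted p = 8.11e-05). ALDH4A1, which returns proline carbon to glutamate, fell to 5.36 ± 0.548 TPM in shGOT1, against 9.54 ± 0.771 TPM in shNC (-0.91, SE 0.0846, edgeR adjusted p = 0.000390), and overlaps an unnamed gene in the table. The 2 subunits of glutamate-cysteine ligase went opposite ways, with the catalytic GCLC lower (-0.84) and the modifier GCLM higher (0.44). The cytosolic alanine aminotransferase GPT, the counterpart of GPT2, stood at 4.16 ± 0.255 TPM in shGOT1 and 4.61 ± 0.470 TPM in shNC and did not pass (-0.26, edgeR adjusted p = 0.127), and the GOT1-like gene GOT1L1 had no count in any library.

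The next list holds other routes that re-oxidise cytosolic NADH, and carriers of pyruvate and lactate beside them. Of its 9 tested genes 3 rose, 1 fell and 5 did not pass, with a median of 0.064. Of the lactate dehydrogenase genes, LDHB rose (0.36, edgeR adjusted p = 0.000390) and LDHA did not pass (-0.0063, edgeR adjusted p = 0.971). The lactate transporter SLC16A1 had 49.1, 46.5 and 47.5 TPM in shGOT1, against 25.1, 26.4 and 26.2 TPM in shNC (0.90, SE 0.0523, edgeR adjusted p = 6.65e-05). GPD2, the mitochondrial enzyme of the glycerol phosphate shuttle, rose in the count fit (0.41, edgeR adjusted p = 0.00611), while its TPM of 14.15, 12.79 and 15.01 in shGOT1 and 13.08, 13.98 and 9.68 in shNC overlapped and limma on log2(TPM + 1) did not call it (0.19, adjusted p = 0.323). GPD1, its cytosolic partner, was too low to be tested. MPC1, a subunit of the mitochondrial pyruvate carrier, fell to 142 ± 4.35 TPM in shGOT1, against 168 ± 4.90 TPM in shNC (-0.35, edgeR adjusted p = 0.000877).

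Among 11 tested genes of malate, citrate and pyruvate exchange, 3 rose, 5 fell and 3 did not pass, with a median of -0.079. The NADP-linked isocitrate dehydrogenase IDH1 rose to 183 ± 1.16 TPM in shGOT1, against 126 ± 4.35 TPM in shNC (0.40, edgeR adjusted p = 0.000313), and the mitochondrial malic enzyme ME3 rose (0.44, edgeR adjusted p = 0.00906). ME3 missed the threshold in limma once TPM was rescaled by median of ratios (adjusted p = 0.0505). ATP-citrate lyase ACLY fell (-0.31, edgeR adjusted p = 0.000105). The pyruvate carboxylase gene PC fell in the count fit (-0.66) but stood at -0.20 when limma was run on log2(TPM + 1) and did not pass (adjusted p = 0.152). It overlaps LRFN4 in the table.

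Of 16 tested genes of the citric acid cycle besides MDH2, 1 rose, 2 fell and 13 did not pass, or 18.8% called against 44.6% of all genes tested, with a median of -0.045. The succinate dehydrogenase subunit SDHB fell to 86.9 ± 4.19 TPM in shGOT1, against 137 ± 5.58 TPM in shNC (-0.76, edgeR adjusted p = 0.000128). IDH3G, a regulatory subunit of the NAD-linked isocitrate dehydrogenase, fell (-0.27) and overlaps SSR4. The succinyl-CoA ligase subunit SUCLA2 rose (0.24, edgeR adjusted p = 0.0160), but missed the threshold once shGOT1 replicate 1 (0.0541) or shNC replicate 3 (0.0514) was left out, and when limma was run on log2(TPM + 1) (adjusted p = 0.0606). Without shNC replicate 3 this list had 5 calls, and with limma on log2(TPM + 1) it had 6.

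**Figure D4:**
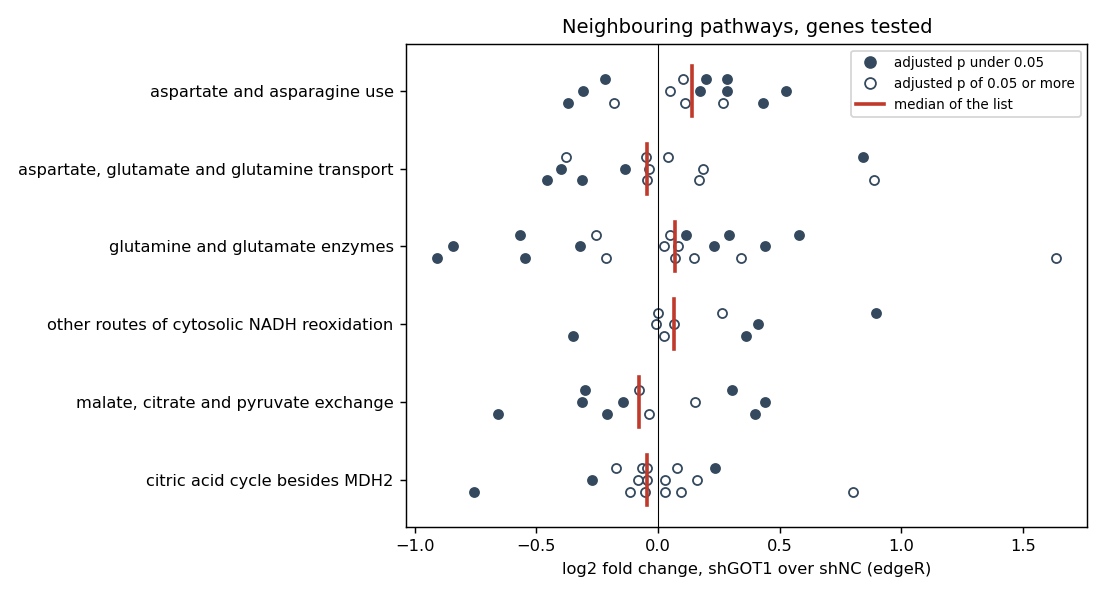
Log2 fold change, shGOT1 over shNC (x axis), of each tested gene of the 6 neighbouring pathways (rows); filled points passed an adjusted p of 0.05 and red bars are list medians. Every list has called genes on both sides of 0, and the medians lie between -0.079 and 0.14.

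The genes whose profile over the 6 libraries was most like that of GOT1 were found by the root mean square difference of log2 CPM, each gene centred on its own mean, among 10202 protein-coding genes with at least 5 TPM in the higher group. They were FCGR2B, at a difference of 0.0964, RTN1 (0.0978), IGSF6 (0.133), S100A8 (0.140) and AKR1C2 (0.174). Their log2 fold changes were -2.33, -2.40, -2.58, -2.32 and -2.16. S100A8, a calgranulin of myeloid cells, stood at 144 ± 7.24 TPM in shGOT1 and 671 ± 54.4 TPM in shNC (SD, n = 3 each). With 2 groups such a profile mostly records the size of the fall, and FCGR2B and AKR1C2 have near-identical paralogs while IGSF6 overlaps METTL9, so their values are uncertain.

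**Figure D5:**
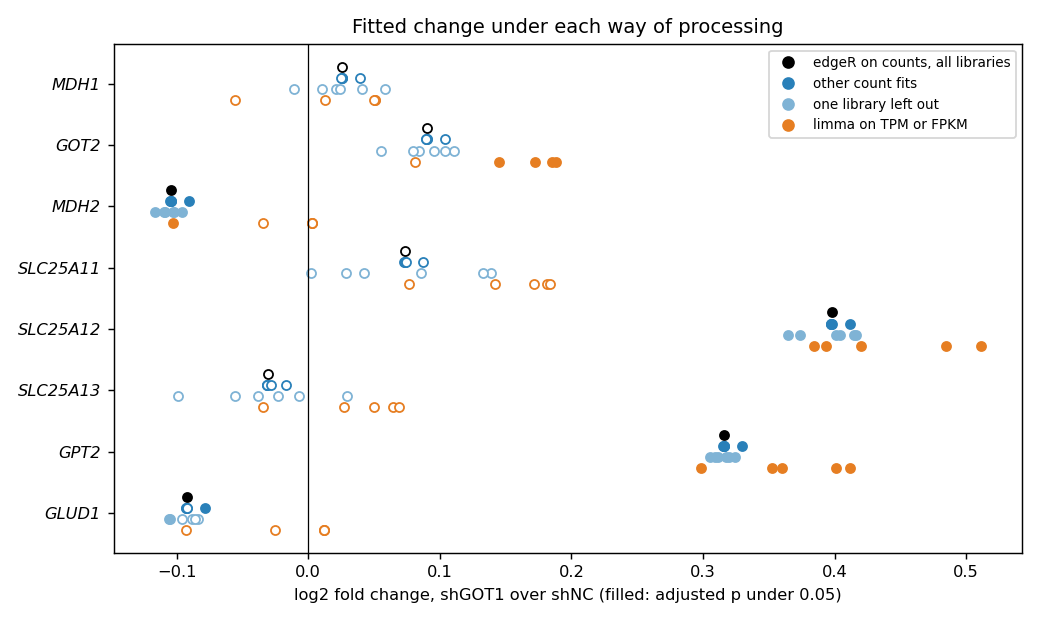
Log2 fold change, shGOT1 over shNC (x axis), of the 8 genes besides GOT1 under 17 ways of processing (points); filled points passed an adjusted p of 0.05. SLC25A12 and GPT2 stay right of 0 and filled throughout, and GOT2 is filled with 4 of 5 limma fits. MDH2 and GLUD1 reach 0 with limma on TPM as deposited, and stand at -0.10 and -0.093 with limma on rescaled TPM.

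The 9 genes thus fell into 3 kinds by how far their values held across 16 alternative ways of processing. GOT1 (-2.49 to -1.37), SLC25A12 (0.36 to 0.51) and GPT2 (0.30 to 0.41) passed the threshold in the same direction in all 16. MDH2 and GLUD1 were called lower in the count fit and stood at 0.00323 and 0.012 with limma on log2(TPM + 1), a scale on which the median of all genes tested was 0.093, against 0.00452 in the count fit. On that scale 66.4% of the called genes were on the higher side, against 49.0% in the count fit. MDH2 kept its call and direction in 12 of the 16 alternatives, and GLUD1 in 5. GOT2 was past the threshold with 4 limma fits alone, and MDH1, SLC25A11 and SLC25A13 with none.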

How the data were processed

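The deposited table gives counts, TPM and FPKM by gene for 3 shGOT1 and 3 shNC libraries of poly(A)-selected RNA, matched to samples by the library names in the labels. StringTie, DESeq2, Trimmomatic and FastQC are named, per the submitters' processing notes. For the aligner, build, strand setting and versions, not given in the sources used here, nothing was assumed. The counts deposited by the authors are whole numbers that were not normalized. The TPM deposited by the authors is scaled to length and a fixed total, and the FPKM deposited by the authors to length and depth. Coordinates are the table's, and for 7 of the 9 members they equal those of GENCODE 29 (GRCh38).

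Counts were tested with edgeR 4.0.16 in R 4.3.3 (filterByExpr, TMM, glmQLFit, glmQLFTest, 2-sided, no covariates) over 13735 genes, and alternatives used limma 3.58.1 and DESeq2 1.42.0. The steps were tested on simulated counts in which few genes changed, as many up as down. Data with as many calls as here were not simulated. Totals of 26226977 to 39144890 per library set the counting error, and 3 counts equal 0.0766 to 0.114 CPM. The members and lists were chosen with earlier results of these data known. LYZ, CTSG, CAD, UMPS, DHODH, LDHA, LDHB, GPT, GPD1, GOT1L1, GLUD2 and genes beside GOT1 were named after their values were seen. Besides these and the members, the text names genes by a rule. It took the 2 largest called rises and falls per list, genes that overlap a member, and the 5 genes closest to GOT1 in profile. Some items that this rule would name are not reported here.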

Additional observations from a re-analysis of the deposited data

How the results depend on the processing

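Of 144 alternative values for the 9 members, 118 kept their direction and side of the threshold. The count of genes past the threshold was 6128 and 5169 to 5354 without any single library. Members past the threshold numbered 5, or 4 to 5 without a library. No deviation shared by replicate number was seen, as the correlations of same-numbered deviations were 0.0282, 0.00893 and -0.000322. Those of differently numbered libraries ran from -0.0282 to 0.0217. Whether the cultures were handled in pairs cannot be told from these values. With the replicate block 5222 genes and 4 members passed, GLUD1 being lost (edgeR adjusted p = 0.0607).

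Reversed values were all small. With limma on log2 TPM and pseudocounts of 1, 0.1 and 5, MDH2 stood at 0.00323, 0.00323 and 0.00319, SLC25A13 at 0.065, 0.069 and 0.050, GLUD1 at 0.0122, 0.0123 and 0.0118, and SHLD2 at 0.0206, 0.0214 and 0.0176. SLC25A13 was 0.027 with log2(FPKM + 1), and MDH1 was -0.055 after median-of-ratios scaling. Without a library, MDH1 ranged from -0.011 to 0.058, SLC25A13 from -0.099 to 0.029, and the MDH1 share difference from -0.0967 to 1.38 percentage points. The cause was not tested.

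Of the list counts, transporters had 3 calls under every limma fit and 2 to 5 without a library, against 5. Citric acid cycle genes had 6 with limma on log2 TPM at each pseudocount and 2 to 5 without a library, against 3. Malate, citrate and pyruvate exchange had 5 after median-of-ratios scaling, against 8. The cause was not tested. The 3 libraries a group and the count of GOT1 limit the precision, and with 3 against 3 the exact tests cannot reach 0.05.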
